A study of Mus musculus with 12 samples.

Results

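Ion channels and neurotransmitter receptors are the membrane proteins by which neurons and glia carry electrical and chemical signals. The set described here held 72 of the 7896 genes that could be named on the arrays. Members were taken by symbol from the probe sets named in the authors' deposited tables: voltage-gated and other potassium, sodium, calcium and HCN channels, and GABA-A, glutamate, glycine and nicotinic acetylcholine receptors. Probe sets assigned to more than 1 gene were left out. The symbols brought in 501 probe sets, 347 of them over exon regions and 154 over exon junctions, and no glycine receptor gene. The rule works on symbols alone, so it also took 1 gene of a scaffold protein and the noncoding RNAs Kcnq1ot1 and Kcnmb4os2. The other 69 members encode channel or receptor subunits or their auxiliary proteins.

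RNA came from the cerebellum of C57BL/6 mice at postnatal day 3, 3 samples in each of 4 groups, and the comparisons ask how loss of Atr alters the developing cerebellum with apoptosis blocked or p53 deleted. All groups carried Math1-Cre. BaxBak controls were Math1-Cre;Bax-loxP/loxP;Bak--/-, and Atr BaxBak mutants had Atr-loxP/loxP in addition. The p53 controls were Math1-Cre;p53-loxP/loxP, and Atr p53 mutants had Atr-loxP/loxP in addition. Bax and Bak are pore-forming proteins of mitochondrial apoptosis, p53 is a transcription factor of the DNA damage response, and Atr is a kinase that responds to stalled replication. Math1-Cre acts in the granule cell lineage, so Purkinje cells, interneurons and glia keep their floxed alleles, and the tissue still holds RNA from all of them. Bak--/-, in both BaxBak groups and neither p53 group, is not labelled as floxed, so its loss is not limited to that lineage. No label says that samples came from separate litters, and p-values then cover the spread between these 3 samples a group, which may be technical. Numbers in the sample titles were shared by the 3 Atr BaxBak mutants and by none of their controls, so that number and the genotype cannot be told apart in the BaxBak comparison. In the p53 comparison all 3 mutants and p53 control 1 shared a number, and the other two controls had another.

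A signal here is the log2 signal that the authors deposited for each probe set, averaged over the named probe sets of a gene, and a difference is mutants minus controls on the log2 scale with limma's standard error (SE). Array medians lay between 6.46 and 6.49. Probe sets have a name only where they passed the authors' own test between Atr BaxBak mutants and BaxBak controls. Differences in the BaxBak background are therefore a description of selected probe sets and carry no test here. Counts by family cover named genes only, and genes of a family without a named probe set could not enter them. The p53 background shares no sample with that selection, although its test pools the spread of all 12 samples. Trp53, the gene of p53, was at 9.07 in BaxBak controls and 8.67 in p53 controls over 6 probe sets, which are not known to lie in the deleted part. No named probe set was found for Atr, Bax or Bak1, whose deletion was not checked here.

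Voltage-gated channels open on a change in membrane potential: sodium channels start the action potential, potassium channels end it and set its rate, and calcium channels turn it into calcium entry and transmitter release. Glutamate receptors of the AMPA, kainate and NMDA classes carry fast excitation, and GABA-A receptors carry fast inhibition in the mature brain. In the first postnatal week granule cell precursors divide in the outer layer of the cerebellum, and their daughters gain channels and receptors as they leave the cell cycle, move inward and form synapses. Purkinje cells, the output neurons of the cortex, are already postmitotic.

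In the BaxBak background most channel and receptor genes had a higher signal in Atr mutants than in controls. For all 72 members the 3 mutants and 3 controls did not overlap, 56 higher and 16 lower in mutants. Because this contrast chose the names, the same held for 98.5% of all named genes, 39.8% higher and 58.7% lower, so nothing is read from the absence of overlap. By sign alone, 77.8% of members were higher against 40.7% of named genes, with a median difference of 0.49 against -0.34. Of the member probe sets 446 were higher and 55 lower. The lowest difference was -1.46, for Chrnb4, and the highest was that of Gabrb2, whose controls were at the negative control level and which is given as a bound where it is described. The differences had a median of 0.55 among the 56 higher genes and -0.74 among the 16 lower. In whole-tissue RNA, fewer cells of a type and less RNA per cell cannot be told apart.

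**Figure D1:**
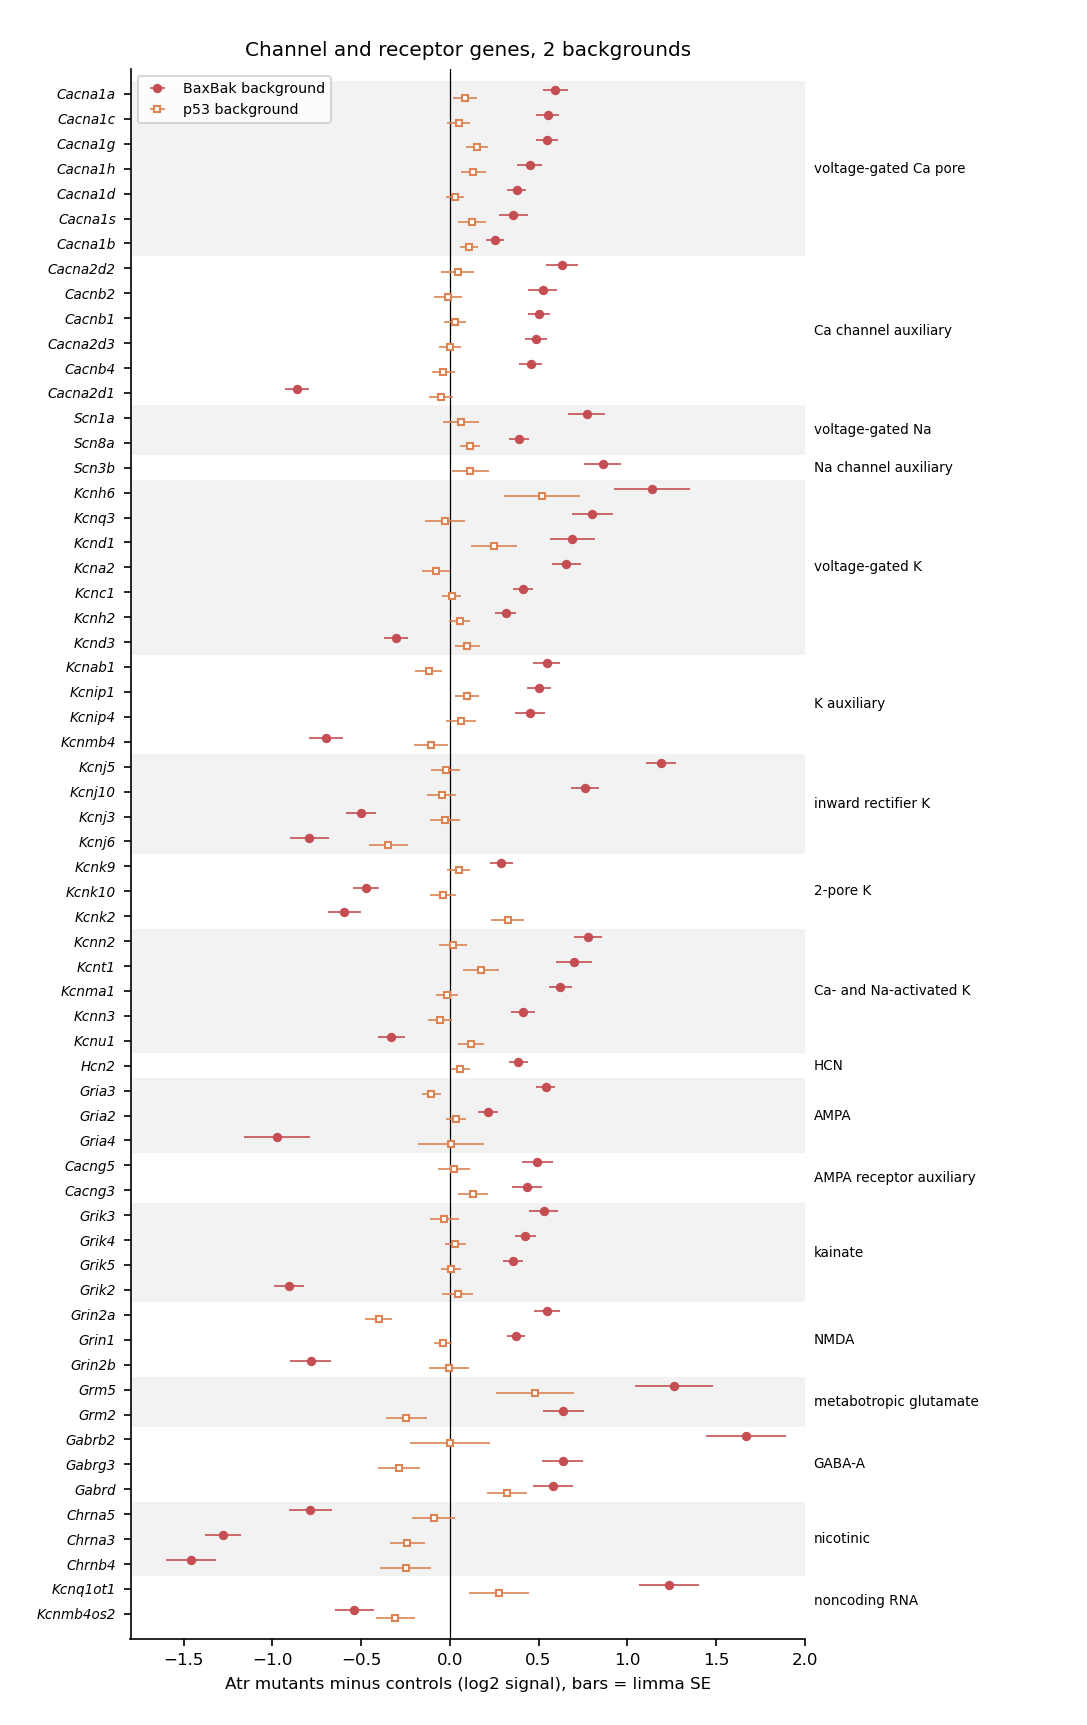
Differences of 62 of the 72 channel and receptor genes between Atr mutants and controls (log2 signal, x axis), by family, for the BaxBak background (filled circles, no test) and the p53 background (open squares); bars are limma's SE. In the BaxBak background 47 of the genes shown lie above 0 and 15 below, with all 3 named nicotinic receptor genes below. Of the 62 open squares, 49 lie within 0.2 of 0.

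Comparison with all 9 other samples describes which BaxBak group stood apart. Names were chosen by the contrast of Atr BaxBak mutants with their controls, which favours separation of either group. These shares are therefore a description only. The 3 Atr BaxBak mutants lay outside the range of the 9 other samples for 62 members, 48 higher and 14 lower, or 86.1% against 70.2% of named genes. The BaxBak controls lay outside the range of the 9 others for 20 members, 27.8% against 28.3%. Both groups stood apart for 13 members and neither for 3. Only the BaxBak controls stood apart for Gria4, Kcnc1, Grik3, Grm2, Kcnj6 and Cacna1b, among others. The heat map of all samples therefore shows p53 controls and Atr p53 mutants mostly near the BaxBak controls, with exceptions such as Gria4, Grik2 and Cacna2d1.

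**Figure D2:**
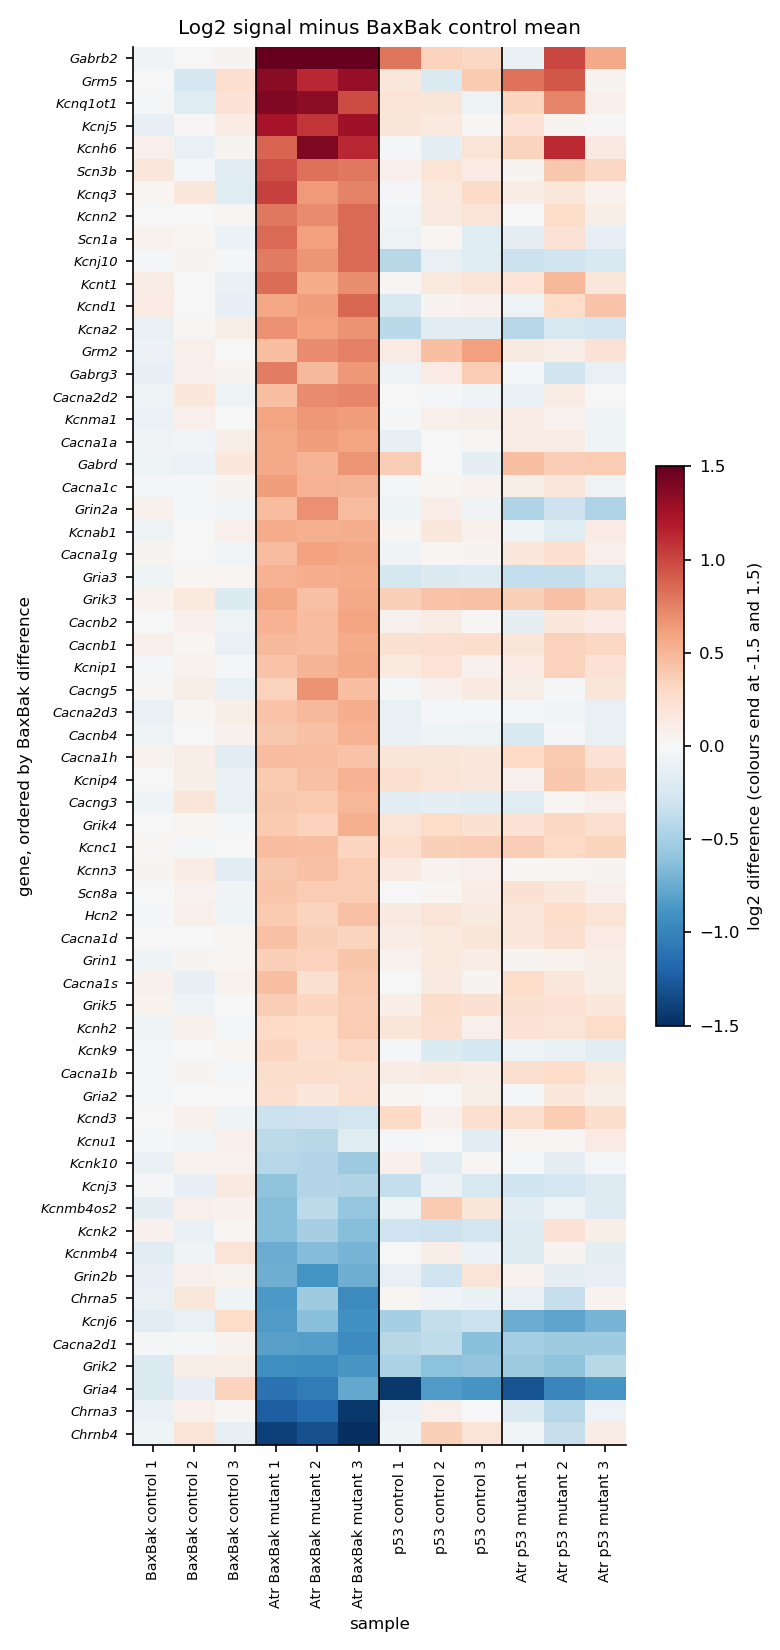
Log2 signal of each of 62 channel and receptor genes in each of the 12 samples minus the mean of the 3 BaxBak controls (colour scale, ending at -1.5 and 1.5), with genes ordered by their BaxBak difference. The 3 Atr BaxBak mutants form a block unlike the other columns, which the choice of names by their contrast with BaxBak controls favours. Gria4 is blue in all p53 controls and Atr p53 mutants as well.

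Markers of cell types moved with these genes. Marker names also came only from the BaxBak contrast, in which 39.8% of all named genes were higher and 58.7% lower without overlap, with a median of -0.34. Purkinje cell markers had 8 of 16 named, all 8 higher in Atr BaxBak mutants with a median difference of 0.66, and their mean signal lay at 8.82 to 9.01 in BaxBak controls and 9.61 to 9.69 in mutants. Interneuron markers (8 of 11 named) and astrocyte and Bergmann glia markers (8 of 15) were all higher as well, with medians of 0.72 and 0.88. Oligodendrocyte lineage markers had 9 higher and 1 lower of 10, and all 4 named microglia markers and all 3 named endothelial and pericyte markers were higher. Granule cell precursor markers went the other way: 12 of 14 were lower and 1 higher, with a median of -0.53 and mean signals of 9.88 to 9.96 in controls and 9.39 to 9.46 in mutants. Among them Atoh1, the transcription factor that marks these precursors, was at 9.62 in BaxBak controls, 8.99 in Atr BaxBak mutants, 9.58 in p53 controls and 9.18 in Atr p53 mutants. Postmitotic granule neuron markers split, with 4 higher and 3 lower of 7, and the erythroid, choroid plexus and brainstem lists had 1 named gene each, at 0.47, -0.82 and -0.98. In the p53 background the medians of the lists with at least 3 named genes were between -0.22 for precursor markers and 0.10 for endothelial and pericyte markers. The mean signal of precursor markers lay at 9.73 to 9.90 in p53 controls and 9.43 to 9.68 in Atr p53 mutants, without overlap. That of Purkinje cell markers overlapped, at 9.045 to 9.139 and 9.007 to 9.216. These list means were not tested. Of single markers in the p53 background 1, Sfrp1, passed limma's test (adjusted p = 0.0359), but not with only the 6 p53 samples (limma adjusted p = 0.123). The markers of granule precursors, Purkinje cells and Bergmann glia found here are those of the labelled tissue. Their part in the channel and receptor differences was not tested.

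The nicotinic acetylcholine receptor subunits Chrna3, Chrnb4 and Chrna5 were the only family of more than 1 member with every member lower. These genes encode subunits of the receptor type best known from autonomic ganglia, and in RefSeq order they are neighbours on chromosome 9. Chrna3 was at 10.12, 10.30 and 10.25 in BaxBak controls and at 8.99, 9.07 and 8.78 in Atr BaxBak mutants. It was at 10.13, 10.30 and 10.23 in p53 controls and at 10.01, 9.80 and 10.14 in Atr p53 mutants. The Atr BaxBak mutants were thus below all 9 other samples, a difference of -1.28 ± 0.10 (2.43-fold lower). Chrnb4 was at 8.39, 8.64 and 8.34 in BaxBak controls and at 7.06, 7.14 and 6.79 in Atr BaxBak mutants, a difference of -1.46 ± 0.14 (2.75-fold lower). In p53 controls it was at 8.39, 8.81 and 8.64, and in Atr p53 mutants at 8.41, 8.11 and 8.57, so these groups overlapped. Chrna5 had a single probe set and a difference of -0.79 ± 0.12.

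The probe sets of Chrna3 and Chrnb4 pointed one way. All 12 of each gene, 8 over exon regions and 4 over junctions, were lower in Atr BaxBak mutants, from -1.62 to -0.53 for Chrna3 and from -1.84 to -0.88 for Chrnb4. All 24 were also below 0 in the p53 background, from -0.35 to -0.10 and from -0.42 to -0.06, where neither gene passed limma's test (Chrna3, -0.24 ± 0.10, adjusted p = 0.158; Chrnb4, -0.25 ± 0.14, adjusted p = 0.291). Among the 8 coding genes on either side of Chrna3, 5 named genes besides the receptor genes had BaxBak differences of -0.46 to -0.25. Psma4, a proteasome subunit gene next to Chrna5, differed by -0.36, near the median of -0.38 over 373 named genes of chromosome 9. Of the 10 members on that chromosome, 6 were higher and 4 lower.

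**Figure D3:**
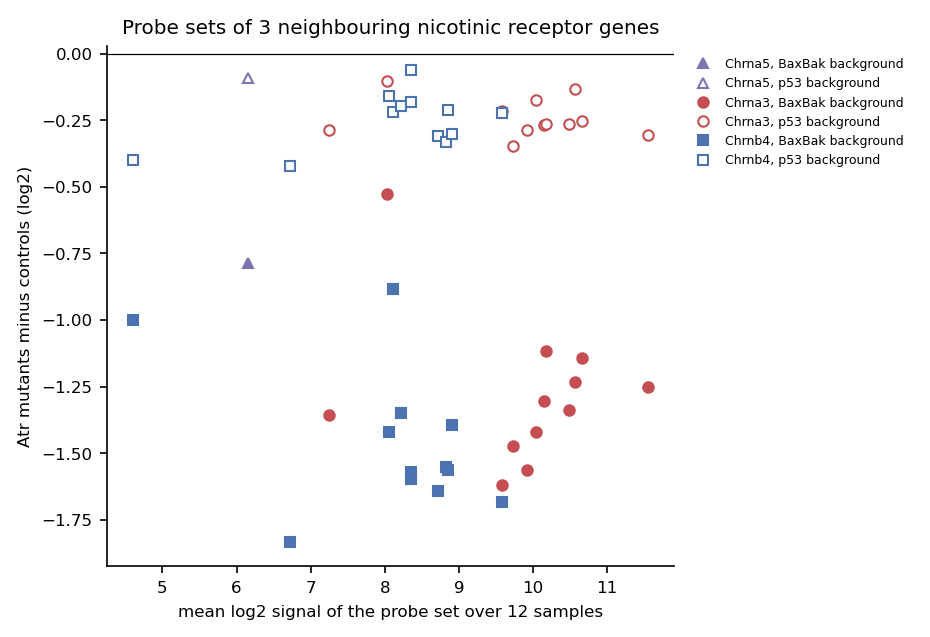
Difference between Atr mutants and controls (log2, y axis) of each probe set of Chrna5, Chrna3 and Chrnb4 against its mean log2 signal over the 12 samples (x axis); filled symbols are the BaxBak background and open symbols the p53 background. All filled points of Chrna3 and Chrnb4 lie between -1.84 and -0.53, and the open points between -0.42 and -0.06.

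The 250 bases before the annotated starts of Chrna3 and Chrnb4 are shown because these neighbouring receptor genes were both lower. They are read 5′ to 3′ on the gene's strand from RefSeq's GRCm38.p6 table, and capitals mark matches, on either strand, to the motif GGGCGG (the GC box of Sp1-type factors), to the motif CAGATG (an E-box form bound by proteins such as Atoh1), to the motif CAGCTG (another E-box form) or to the motif TATAAA (the TATA box). Chrna3 (chr9:55026563-55026812, minus strand) has 1 GC box match, and Chrnb4 (chr9:55048545-55048794, minus strand) has 1 CAGCTG.
Chrna3: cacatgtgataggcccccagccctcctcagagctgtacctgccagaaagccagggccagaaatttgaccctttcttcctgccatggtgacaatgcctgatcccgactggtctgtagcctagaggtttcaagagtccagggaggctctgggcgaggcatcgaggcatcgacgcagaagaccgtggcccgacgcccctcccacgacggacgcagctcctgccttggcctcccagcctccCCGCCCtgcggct
Chrnb4: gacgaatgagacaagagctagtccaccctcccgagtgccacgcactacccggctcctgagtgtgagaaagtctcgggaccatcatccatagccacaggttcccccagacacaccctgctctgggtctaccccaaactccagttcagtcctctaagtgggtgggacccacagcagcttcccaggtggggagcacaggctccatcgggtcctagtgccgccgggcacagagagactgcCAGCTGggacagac

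Named calcium channel genes were mostly higher in Atr BaxBak mutants. All 7 named pore genes were higher, from 0.26 for Cacna1b to 0.60 for Cacna1a. Cacna1b is the N-type channel of nerve endings, and Cacna1a the P/Q-type channel that dominates in Purkinje cells and at cerebellar synapses. Cacna1a had 65 probe sets, all higher. It was at 9.33, 9.34 and 9.48 in BaxBak controls, 9.95, 10.01 and 9.98 in Atr BaxBak mutants, 9.26, 9.39 and 9.41 in p53 controls and 9.50, 9.50 and 9.32 in Atr p53 mutants. The Atr BaxBak mutants were above every other sample, by 0.60 ± 0.07 over their controls (1.51-fold), and the p53 groups overlapped. Its brightest probe set differed by 0.40. The T-type channel Cacna1g, which gives low-threshold calcium bursts, was higher in all 42 of its probe sets and by 0.55 ± 0.06. Cacna1b was the only member with probe sets of both signs, 10 higher and 1 lower, from -0.42 to 0.42. The L-type genes Cacna1c, Cacna1d and Cacna1s differed by 0.55, 0.38 and 0.36, and the T-type gene Cacna1h by 0.45.

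Calcium channel auxiliary subunits, which carry the pore to the membrane and tune it, split. Cacna2d2, the extracellular subunit found in Purkinje cells, was at 9.44, 9.66 and 9.43 in BaxBak controls and at 9.96, 10.22 and 10.24 in Atr BaxBak mutants, higher in all 39 probe sets and by 0.63 ± 0.09. Its relative Cacna2d1 was at 7.50, 7.50 and 7.58 in BaxBak controls and at 6.71, 6.70 and 6.58 in Atr BaxBak mutants, a difference of -0.86 ± 0.07. In p53 controls Cacna2d1 was at 7.11, 7.15 and 6.90 and in Atr p53 mutants between 6.99 and 7.03, so both p53 groups lay between the BaxBak groups. Its 2 exon region probe sets alone differed by -0.58, and its brightest probe set by -0.55. Cacna2d3 and the cytoplasmic subunits Cacnb1, Cacnb2 and Cacnb4 were higher by 0.46 to 0.52.

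The 250 bases before the start of Cacna2d2 (chr9:107399630-107399879, plus strand), on the same chromosome as the nicotinic genes, are shown for contrast, together with those of Kcnma1 (chr14:24004206-24004455, minus strand), another of the higher genes, and Kcnj6 (chr16:94997697-94997946, minus strand), one of the lower. Cacna2d2 has 1 GC box match and a GC content of 74.4%, Kcnma1 has 3 (a pair of them overlapping) and 79.2%, and Kcnj6 has none of the 4 motifs and 64.0%.
Cacna2d2: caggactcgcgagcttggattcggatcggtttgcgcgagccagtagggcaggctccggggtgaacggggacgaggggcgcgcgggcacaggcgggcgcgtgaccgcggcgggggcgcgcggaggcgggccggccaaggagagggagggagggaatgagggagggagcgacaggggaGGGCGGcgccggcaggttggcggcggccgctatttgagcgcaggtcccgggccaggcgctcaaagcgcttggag
Kcnma1: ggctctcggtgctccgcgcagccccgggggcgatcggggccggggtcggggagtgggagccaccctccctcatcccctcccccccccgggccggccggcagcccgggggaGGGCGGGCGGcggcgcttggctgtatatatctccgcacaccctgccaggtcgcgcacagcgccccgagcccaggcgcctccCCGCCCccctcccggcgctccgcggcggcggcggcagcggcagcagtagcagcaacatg
Kcnj6: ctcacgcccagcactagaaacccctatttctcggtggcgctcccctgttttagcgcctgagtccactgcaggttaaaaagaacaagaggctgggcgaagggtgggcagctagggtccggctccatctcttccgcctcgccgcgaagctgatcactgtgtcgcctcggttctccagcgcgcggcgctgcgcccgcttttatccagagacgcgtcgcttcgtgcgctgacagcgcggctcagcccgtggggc

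The table held 71 promoters for 48 members, with a median GC content of 62.4% against 52.4% over all 32817. GGGCGG was in 32.7% of all promoters, 27 of 52 promoters of higher members and 8 of 19 of lower members. The E-box form CAGATG was in 14.5% of all, 9 of 52 and 1 of 19, and CAGCTG in 13.0%, 10 of 52 and 5 of 19. TATAAA was in 12.4% of all promoters, 2 of 52 and 0 of 19. Promoters of the same gene share sequence, and a match is a string of letters, not a bound site.

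All 5 named sodium channel genes were higher in Atr BaxBak mutants. The auxiliary subunit Scn3b, which tunes channel gating, was at 9.54, 9.36 and 9.21 in BaxBak controls and at 10.33, 10.20 and 10.16 in Atr BaxBak mutants, a difference of 0.86 ± 0.10. It was at 9.45, 9.58 and 9.49 in p53 controls and at 9.40, 9.78 and 9.67 in Atr p53 mutants, which overlapped. The brightest of its 8 probe sets differed by 0.40, less than the mean. The pore gene Scn1a differed by 0.77 ± 0.10, and Scn8a, which carries the resurgent current of Purkinje cells, by 0.39.

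Of 11 named voltage-gated potassium channel genes, 9 were higher and 2 lower. Kcnc1, a channel of fast-spiking neurons, was higher by 0.41, but here the BaxBak controls stood apart. Their mean was 8.56, against 8.97 in Atr BaxBak mutants, 8.88 in p53 controls and 8.89 in Atr p53 mutants. Kcna2, a channel of axons and basket cell endings, differed by 0.66, Kcnd1 by 0.69 and Kcnh2 by 0.32. Kcnq3, a subunit of the M-current that holds back repetitive firing, was higher by 0.80, and by 0.46 in the brighter of its 2 probe sets. Kcnd3, a pore subunit of the A-type current, differed by -0.31, although the A-type auxiliary genes Kcnip1 and Kcnip4 were higher by 0.50 and 0.45. Kcnh6, on 1 junction probe set, was higher by 1.14 ± 0.21, or 0.76 with the mean signal of the negative controls as a covariate. The auxiliary gene Kcnab1 was higher by 0.55.

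Large-conductance and small-conductance calcium-activated potassium channels shape the afterpotential of Purkinje cell spikes. Kcnma1, the pore gene of the large-conductance channel, was at 8.71, 8.88 and 8.80 in BaxBak controls and at 9.38, 9.45 and 9.43 in Atr BaxBak mutants. All 42 of its probe sets were higher and the gene differed by 0.62 ± 0.06. In p53 controls it was at 8.78, 8.88 and 8.88 and in Atr p53 mutants at 8.91, 8.85 and 8.73, which overlapped. Kcnmb4, the auxiliary subunit of that channel in neurons, went the other way in all 4 probe sets. It was at 8.78, 8.89 and 9.14 in BaxBak controls, 8.19, 8.29 and 8.23 in Atr BaxBak mutants, 8.94, 9.04 and 8.84 in p53 controls and 8.74, 8.97 and 8.78 in Atr p53 mutants, a BaxBak difference of -0.70 ± 0.10. The noncoding RNA Kcnmb4os2, named as its opposite-strand transcript, differed by -0.54, and whether the probe sets of the pair share sequence was not tested. The small-conductance genes Kcnn2 and Kcnn3 were higher by 0.78 and 0.41, and Kcnt1, a sodium-activated channel, by 0.70 over 22 probe sets, or 0.46 with the mean signal of the negative controls as a covariate. Kcnu1, a channel known from mouse sperm, differed by -0.33 on 1 probe set.

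Of the 4 named inward rectifier genes 2 were higher and 2 lower. Kcnj10, the channel by which astrocytes and Bergmann glia take up potassium, was at 9.04, 9.10 and 9.04 in BaxBak controls and at 9.84, 9.72 and 9.91 in Atr BaxBak mutants, a difference of 0.76 ± 0.08, and of 0.49 in its brightest probe set. It was at 8.64, 8.95 and 8.88 in p53 controls and at 8.74, 8.76 and 8.84 in Atr p53 mutants. Among the G protein-gated subunits Kcnj5, between 5.06 and 5.30 in BaxBak controls and between 6.26 and 6.46 in Atr BaxBak mutants, was higher by 1.19 ± 0.08. Kcnj3 and Kcnj6 were lower, with differences of -0.50 and -0.79 ± 0.11. Kcnj6 was at 8.80, 8.84 and 9.22 in BaxBak controls, 8.11, 8.33 and 8.04 in Atr BaxBak mutants, 8.45, 8.60 and 8.63 in p53 controls and 8.21, 8.16 and 8.26 in Atr p53 mutants. In both backgrounds every mutant was below every control, but the p53 difference of -0.35 ± 0.11 did not pass limma's test (adjusted p = 0.092). The named 2-pore genes, whose open channels set the resting potential, were Kcnk9 (0.29), found in granule neurons, Kcnk10 (-0.47) and Kcnk2 (-0.60). The pacemaker channel gene Hcn2 was higher by 0.39.

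**Figure D4:**
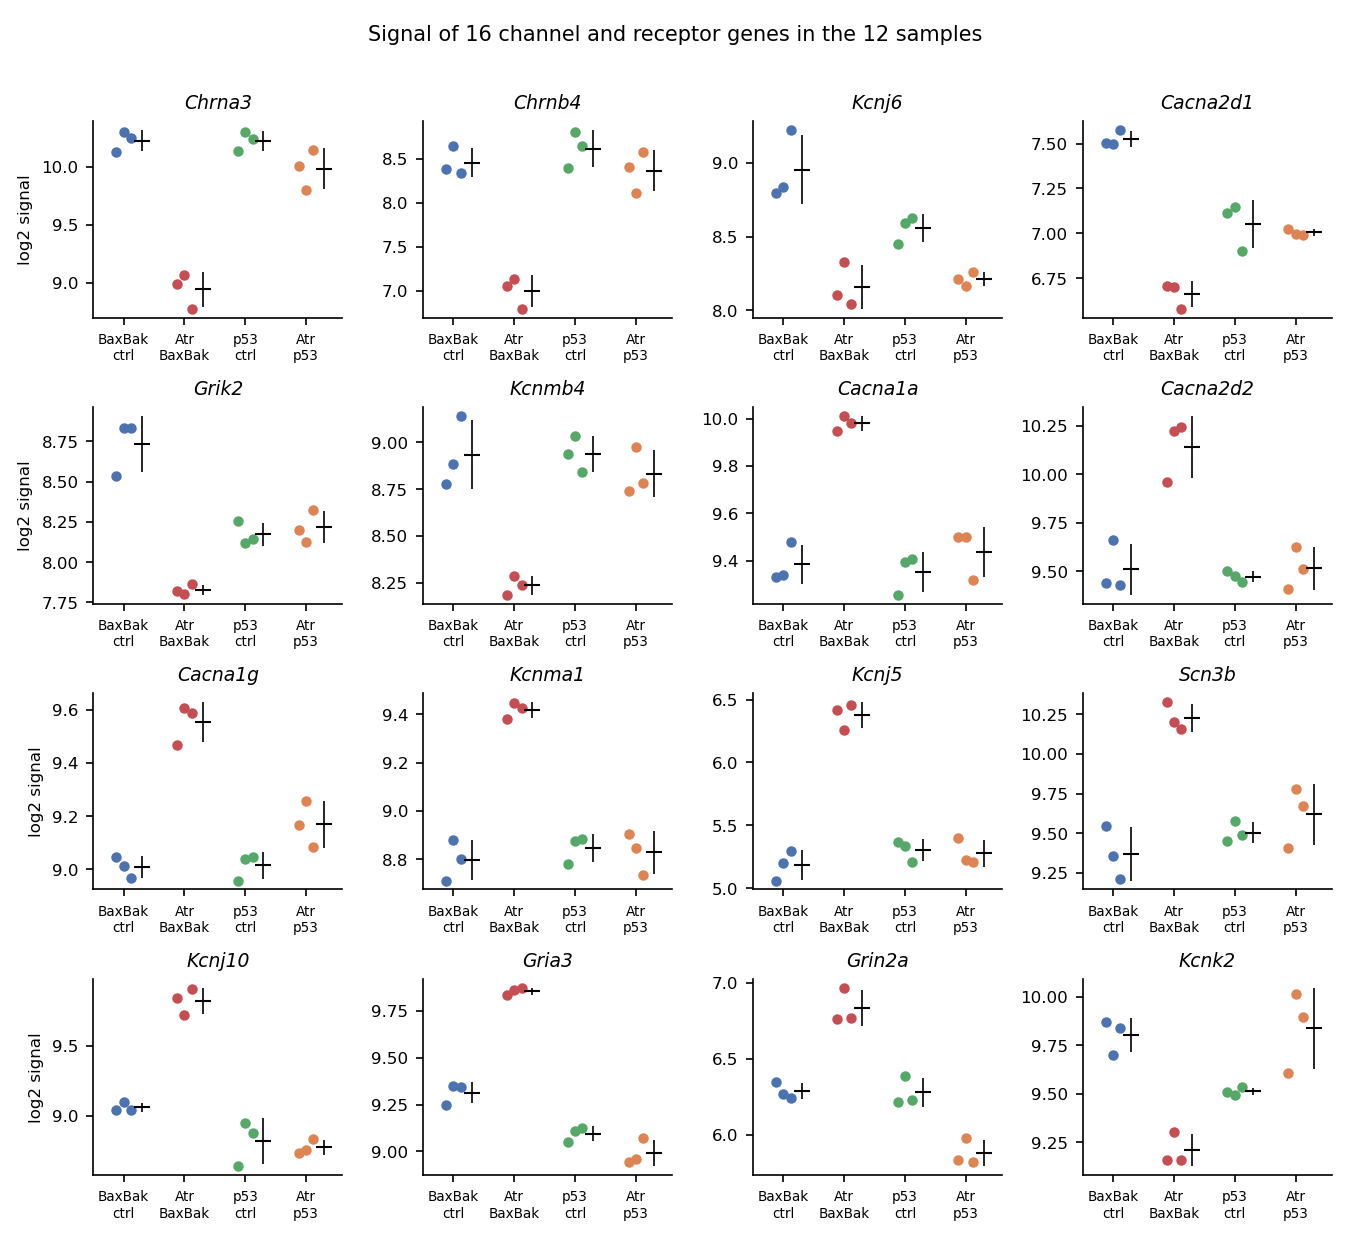
Log2 signal (y axis, a separate scale per panel that does not start at 0) of 16 channel and receptor genes in each of the 12 samples; dots are samples, and lines beside them are the group mean and SD (n = 3). The Atr BaxBak mutants stand below all other samples for Chrna3 and Chrnb4 and above them for Cacna1a and Kcnma1, and Grin2a and Kcnk2 differ in opposite directions in the pair of backgrounds.

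Of the 14 named glutamate receptor genes, 11 were higher and 3 lower. Of the AMPA receptor genes, Gria3 was at 9.25, 9.35 and 9.34 in BaxBak controls and at 9.83, 9.86 and 9.87 in Atr BaxBak mutants, higher in all 26 probe sets and by 0.54 ± 0.05. Gria2, the subunit that blocks calcium entry, differed by 0.22. Gria4, on 1 junction probe set, was at 6.51, 6.59 and 7.05 in BaxBak controls and at 5.61, 5.66 and 5.95 in Atr BaxBak mutants, a difference of -0.98 ± 0.19. Its p53 controls, at 5.26, 5.87 and 5.83, and Atr p53 mutants, at 5.42, 5.72 and 5.83, lay at the level of the Atr BaxBak mutants, so it was the BaxBak controls that stood apart. The AMPA receptor auxiliary genes Cacng5 and Cacng3 were higher by 0.49 and 0.43.

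Among kainate receptor genes Grik3, Grik4 and Grik5 were higher by 0.53, 0.42 and 0.35 and Grik2 was lower. Grik2 was at 8.53, 8.83 and 8.84 in BaxBak controls, 7.82, 7.80 and 7.86 in Atr BaxBak mutants, 8.26, 8.12 and 8.14 in p53 controls and 8.20, 8.13 and 8.32 in Atr p53 mutants. The BaxBak groups lay on opposite sides of the other 6 samples, with a difference of -0.91 ± 0.09, and the single exon region probe set gave -0.65. Of the NMDA receptor genes, the obligatory subunit Grin1 was higher by 0.37 in all 8 probe sets. Grin2b and Grin2a, whose balance shifts from the former to the latter as granule neurons mature, differed by -0.79 ± 0.11 and 0.55 ± 0.08 on 1 probe set each. The metabotropic receptor genes Grm2, of Golgi cells, and Grm5 were higher by 0.64 and 1.26, each on 1 probe set. Grm5 was at a mean of 4.36 in BaxBak controls, near their negative controls at 4.11, and its lowest difference over the alternatives was 0.85.

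The 3 named GABA-A receptor genes had 1 probe set each and were higher. Gabrd, which carries the tonic inhibition of granule neurons, was at 6.46, 6.45 and 6.70 in BaxBak controls and at 7.10, 7.04 and 7.20 in Atr BaxBak mutants, a difference of 0.58 ± 0.12. Gabrg3 differed by 0.64. Gabrb2 was at 3.98, 4.04 and 4.08 in BaxBak controls and at 5.87, 5.60 and 5.63 in Atr BaxBak mutants. Its BaxBak control mean of 4.03 was under the mean of the negative control probe sets in that group, 4.11. With BaxBak controls raised to their negative control signal, the change was at least 2.97-fold higher. This bound leaves out the negative control signal of the mutants, and the lowest log2 difference of Gabrb2 over the alternatives was 1.44. Negative controls themselves averaged 4.43 in Atr BaxBak mutants against 4.11 in BaxBak controls, a difference of 0.33. Fitting that signal as a covariate gave a member median of 0.47. The noncoding Kcnq1ot1, transcribed within the Kcnq1 locus, was higher by 1.23 ± 0.17 over 4 probe sets, or by 0.86 with that covariate.

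By usual cell of expression, 8 of 9 listed genes tied to Purkinje cells were named, all of them higher (median 0.57). Of 10 listed genes tied to granule neurons 3 were named, Kcnk9, Kcnc1 and Gabrd, all higher (median 0.41). For Kcnc1 it was the BaxBak controls that stood apart. Of 9 listed genes tied to glia 4 were named, 3 higher and Gria4 lower. Of 11 tied to immature neurons or progenitors only Grin2b was named, and it was lower (-0.79). Names came from this contrast, so listed genes without a name are not described. Over all members 77.8% were higher. Among other ion channel genes outside the set, 27 of 85 listed had names, and 24 were higher and 3 lower, with a median of 0.47. The largest of these by number of probe sets was Itpr1, the calcium release channel abundant in Purkinje cells, at 0.58 over 49 probe sets.

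In the p53 background the channel and receptor genes differed little between Atr mutants and controls. One of the 72, Grin2a, passed limma's test at an adjusted p under 0.05 over all named genes, against 2.47% of named genes. An unadjusted p under 0.05 was reached by 11 members, 15.3% against 25.5% of named genes. Mutants and controls did not overlap for 9 members, 6 higher and 3 lower, or 12.5% against 27.0% of named genes (8.98% higher and 18.0% lower). The median difference was 0.02 against -0.03, 58 members lay within 0.2 of 0, and 43 were above 0 and 29 below. The 56 genes that were higher in the BaxBak background had a median of 0.03 here, and the 16 that were lower had a median of -0.03.

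Tested per probe set over the whole array, none of the 501 member probe sets passed (limma, smallest adjusted p = 0.633), against 0.00445% of all probe sets. An unadjusted p under 0.05 was found for 35 of them, 6.99% against 7.76% of the array. In the authors' deposited table of the p53 comparison, none of the 501 had a step-up p under 0.05 (smallest 0.643), and 56 had an unadjusted p under 0.05, 11.2% against 19.98% of the probe sets listed.

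Grin2a was the gene that fell in Atr p53 mutants. On its 1 exon region probe set it was at 6.22, 6.39 and 6.23 in p53 controls and at 5.83, 5.98 and 5.82 in Atr p53 mutants. Every mutant was below every control, and the difference was -0.40 ± 0.08 (1.32-fold lower, adjusted p = 0.0227, limma). In the BaxBak background it was at 6.34, 6.27 and 6.24 in controls and at 6.76, 6.97 and 6.77 in mutants, the opposite direction. The p53 call was lost when the 6 p53 samples were fitted alone (limma adjusted p = 0.0792). Only p53 control 1 shares a title number with the mutants. The difference of -0.34 with that number as a block therefore rests on p53 control 1 alone. The Grin2a call was also lost without p53 control 2, p53 control 3 or Atr p53 mutant 1 (limma adjusted p of 0.0919, 0.0677 and 0.0642). Over the alternatives other than that block the adjusted p was between 0.0134 and 0.0919. Of the next genes by p, Kcnk2 was at 9.51, 9.49 and 9.53 in p53 controls and at 9.61, 10.01 and 9.89 in Atr p53 mutants, a difference of 0.33 ± 0.09 that missed the threshold (adjusted p = 0.0756). Its Atr BaxBak mutants, at 9.16, 9.30 and 9.16, were below controls at 9.87, 9.70 and 9.84.

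The other 8 members with the smallest p values also missed the threshold, with adjusted p from 0.092 to 0.159 by limma. Among them were Kcnj6 (-0.35), Gabrd (0.32), Kcnmb4os2 (-0.31), Cacna1g (0.15), Chrna3 (-0.24), Gabrg3 (-0.29) and Kcnh6 (0.52). Gabrd was at 6.91, 6.54 and 6.39 in p53 controls and at 6.99, 6.91 and 6.91 in Atr p53 mutants, so p53 control 1 was level with the mutants. Cacna1g was above 0 in 40 of 42 probe sets, with p53 controls at 8.96, 9.04 and 9.05 and mutants at 9.16, 9.26 and 9.08. Kcnh6 rested on Atr p53 mutant 2, at 6.82 beside 6.04 and 5.84, with controls at 5.69, 5.55 and 5.90.

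The differences in the 2 backgrounds share no sample. Over the 72 members they had a Pearson r of 0.37, against 0.46 over all named genes, and the same sign for 47 members, 65.3% against 69.1%. Genes are not independent replicates, and all arrays share 1 processing. Members higher in the BaxBak background were above 0 in the p53 background in 37 cases and below in 19, and members lower there were below 0 in 10 cases and above in 6. Groups did not overlap in both backgrounds with opposite directions for 4 members, Grin2a, Kcnk2, Kcnn3 and Kcnu1, against 4.17% of named genes.

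**Figure D5:**
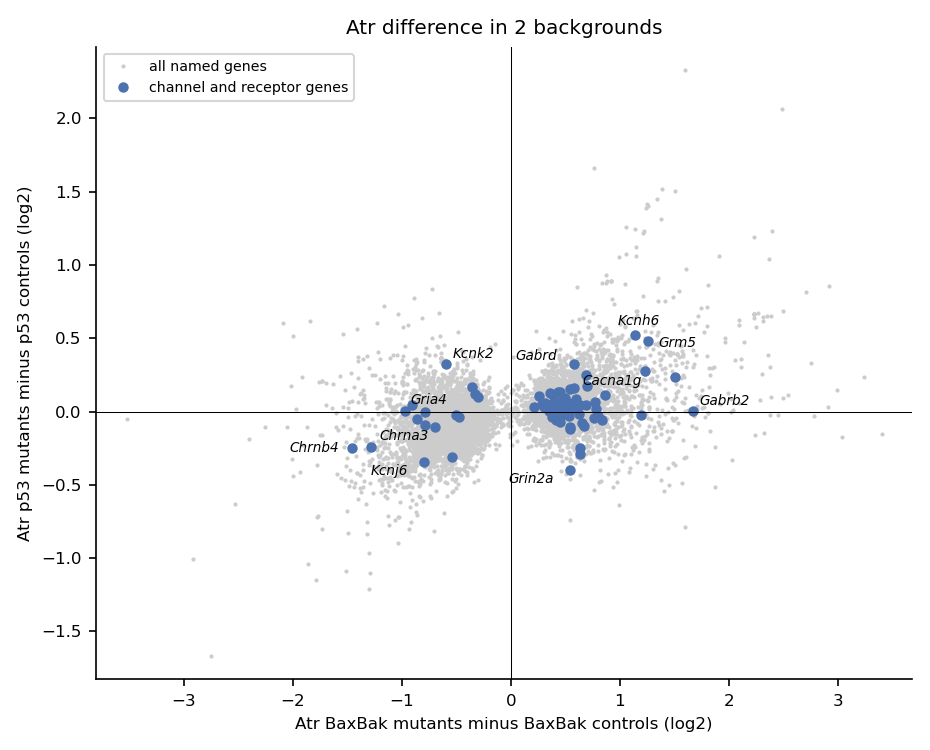
Difference between Atr p53 mutants and p53 controls (log2, y axis) against the difference between Atr BaxBak mutants and BaxBak controls (log2, x axis) for the 72 channel and receptor genes (blue) and all 7896 named genes (grey). Few genes lie near 0 on the x axis, since names were given by a test of that difference, and the blue points lie between -0.40 and 0.52 on the y axis.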

How the data were processed

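Affymetrix exon and junction arrays measured 12 samples, each from 500 ng of total RNA per the labels' protocols, with a label that also reads poly-A selected. The authors deposited log2 signals per probe set for 725678 probe sets. The authors' deposited tables give fold values and p-values for 34305 of them, all past their BaxBak test. Per the submitters' processing notes Partek was used, in no stated role. Not given in the sources used here are the background correction, the normalization and the array build. Control probe sets and 61 without values were left out, which left 719071.

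Names came from those tables: of 31628 named probe sets, 736 with a second symbol, or one cut off in the annotation, were left out, and 30892 were averaged into 7896 genes. All 72 members matched a RefSeq symbol (GRCm38.p6 table). The design assumed these gene means, and limma 3.58.1 (R 4.3.3; two-sided, lmFit with eBayes) fitted 1 mean per group with 8 residual degrees of freedom, with Benjamini-Hochberg adjustment over all named genes or all probe sets. On simulated data it recovered 78 of 100 genes changed by 0.5 and 99 of 100 changed by 1, with 6 false calls. Whether such rates hold for the measured genes, whose names were chosen by the BaxBak test, was not tested. Array data carry no read depth, and the number of arrays limits precision.

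Members and lists were chosen with earlier results of these data known. The rule for naming took members past the p53 threshold or, as fewer than 10 passed, the 10 smallest p. It also took up to 15 largest BaxBak differences in each direction with at least 2 probe sets. The member with most probe sets in each family and members with probe sets of both signs were added. Full values are given for part of these, and some are given by their differences alone. Gabrb2, Grm5, Gria4, Grin2b, Chrna5 and Kcnu1 were added after their values were seen, and other members are given by their differences. Results of 10 members are not reported by name here, though counts and medians include them. Alternatives were another summary of probe sets, other scaling, a filter on dim genes, negative controls as a covariate, the p53 samples alone, the title number as a fixed block or, added after seeing the data, a random block, and leaving out each replicate.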

Additional observations from a re-analysis of the deposited data

Results flagged for a closer look

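For 4 genes every Atr mutant lay on one side of its controls in the BaxBak background and on the other side in the p53 background, and the difference between backgrounds was not tested, because the BaxBak samples chose the gene names. Grin2a differed by 0.55 in the BaxBak background and by -0.40 in the p53 background, a gap of 0.947 on the log2 scale. Kcnk2, a 2-pore potassium channel gene, differed by -0.60 and 0.33, a gap of -0.921. Both rest on 1 probe set. Kcnn3, a small-conductance channel gene with 5 probe sets, differed by 0.41 and -0.06, a gap of 0.465, with p53 controls at 9.39, 9.30 and 9.32 and Atr p53 mutants at 9.27, 9.28 and 9.29. Kcnu1, on 1 probe set, differed by -0.33 and 0.12, a gap of -0.45. Of the 4, only Grin2a passed limma's test in the p53 background. The adjusted p there was 0.0756 for Kcnk2, 0.643 for Kcnn3 and 0.334 for Kcnu1. The share of all named genes with such a pattern was 4.17%, and 22.5% did not overlap in the same direction in both backgrounds.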

How the results depend on the processing

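The number of channel and receptor genes passing limma's test in the p53 comparison was 1 and became 0 with only the 6 samples compared. A fixed block for the title number sets the Atr p53 mutants against p53 control 1 alone. Calls under that block are therefore not counted. Leaving out 1 sample gave 0 to 3 genes: 0 without p53 control 2 or 3, 3 without p53 control 1 (Gabrd, Grin2a and Kcnmb4os2), 2 without Atr p53 mutant 3 (Grin2a and Grm5), and 1 without Atr p53 mutant 1, which was Kcnk2 in place of Grin2a. The cause was not tested. Over all named genes the count of 195 was 63 with only the 6 samples, 109 with exon regions alone and 36 to 708 when 1 sample was left out (lowest without p53 control 3, highest without Atr p53 mutant 3). With the title number as a random block (correlation -0.08) it was 523, and Grin2a passed. The member median stayed between 0.45 and 0.52 in the BaxBak background and between -0.001 and 0.05 in the p53 background over the alternatives run. Counts of members higher and lower without overlap fell to 50 and 12 with exon regions alone, where 10 members have no probe set. For single genes, no alternative turned a called direction. In 28 members the BaxBak difference moved by more than the spread between replicates under at least 1 alternative, among them Scn3b (0.40 in the brightest probe set) and Kcnt1 (0.46 with the negative control covariate). No paired analysis was possible because replicate numbers were given in accession order and pair no samples. Genes with 1 probe set, 25 of the 72, have no second measurement on the array. Gabrb2 and, in BaxBak controls, Grm5 lay near the negative controls.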

Other observations

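Genes that act beside channels and receptors at the synapse were also mostly higher in Atr BaxBak mutants, by description only, since that contrast gave the names. Of 40 named postsynaptic scaffold and receptor auxiliary genes, 29 were higher and 11 lower, with a median difference of 0.41 on the log2 scale against -0.34 over all named genes. Nrxn3, a neurexin with 42 probe sets, was higher by 0.92, Shisa6, an AMPA receptor partner, by 0.78 over 13, and Dlgap1, a scaffold of the postsynaptic density, by 0.62 over 13. Homer2 and Neto2, the latter an auxiliary subunit of kainate receptors, differed by -0.52 and -0.46. In the p53 background the list's median was -0.001, and 1 of its 40 genes, Gphn, passed limma's test, beside 2.47% of all named genes.

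Presynaptic release genes had 25 named, 16 higher and 8 lower in Atr BaxBak mutants, with 1 overlapping, and a median of 0.40. The glycine transporter genes Slc6a9 and Slc6a5 differed by 0.63 over 29 probe sets and 0.74 over 19, while the vesicle priming gene Unc13a and the SNARE gene Stx1a differed by -0.68 and -0.55. Among 17 named genes of ion gradients, 11 were higher and 5 lower with a median of 0.29. Atp1b2, the sodium pump subunit of glia, was higher by 0.62 over 17 probe sets and Atp1b3 differed by -0.62 over 11. In the p53 background 1 of the 25 release genes, 1 of the 17 ion gradient genes and 1 of the 27 other ion channel genes passed limma's test, where 2.47% of all named genes did. They were Unc13c, a priming gene known from granule cell synapses (-0.61, adjusted p = 0.0364), Slc12a7, a potassium chloride cotransporter (-0.33, adjusted p = 0.047), and Ano6, a lipid scramblase and channel (-0.42, adjusted p = 0.0413). These 3 calls and that of Gphn were lost with only the 6 p53 samples (limma adjusted p of 0.0685, 0.0961, 0.0682 and 0.106). With the title number as a block, which sets the mutants against p53 control 1 alone, their differences were -0.63, -0.26, -0.32 and 0.44.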
